A study of Arabidopsis thaliana with 32 samples.

Results

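The plastid genome of Arabidopsis thaliana is read out here as the 133 genes, of 33607 genes in the tables, whose identifier starts with ATCG. All 133 rows of that kind were taken from all 26 deposited tables, without regard to their values. RNA was sequenced from 32 libraries of 4 transgenic or mutant lines, with 2 libraries in each of 16 groups. The lines were IMA1 OE and IMA3 OE, in which the 35S promoter, a strong promoter active in most plant cells, drives the open reading frame of an iron-signalling peptide; opt3-2, a T-DNA insertion line in the gene of the phloem iron transporter OPT3; and EYFP OE, the control, in which the same promoter drives a yellow fluorescent protein from the vector pH2GW7. All lines, the control included, therefore carry inserted DNA, and the labels do not say how many independent transformants stand behind each overexpressor. Seedlings grew in vitro for 10 days on full ES medium with 1.5% sucrose under continuous light, 25 to a plate, and were moved for 72 hours to medium without iron that held the iron chelator FerroZine (deficient) or to full medium (control). The treatment protocol gives 100 µM FerroZine and the series design 300 µM, and the 2 statements were not reconciled. Roots and rosettes were sampled. For the 16 rosette libraries the source label speaks of roots, while title and tissue label give rosettes, which was followed. Whole organs hold many cell types, so fewer plastids, fewer cells and less RNA per cell cannot be told apart.

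Plastids keep a small circular genome that encodes subunits of the photosystems, the ATP synthase, the large subunit of Rubisco, part of the plastid ribosome and its own ribosomal and transfer RNAs. It is transcribed by a plastid-encoded, bacterial-type RNA polymerase, which needs nuclear-encoded sigma factors and associated proteins, and by nuclear-encoded phage-type polymerases. Plastid RNAs do not carry the long stable poly(A) tails of nuclear messengers; in plastids a short tail marks an RNA for degradation. The libraries were made from poly(A) RNA, so the values below are what reached such libraries and not the cell's content of plastid RNA.

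Names were available for few of the rows. RefSeq (assembly TAIR10.1) lists 129 plastid genes under other identifiers, none with an ATCG tag, and only 6 of the 133 rows are paired with a product, in RefSeq's notes on related nuclear genes. These are ATCG00670, noted as the plastid-encoded ClpP, the proteolytic subunit of a stromal protease; ATCG00660, ATCG00750 and ATCG01310, noted as ribosomal proteins L20, S11 and L2; ATCG00530, noted as CemA-like and related to proton extrusion; and ATCG00430, noted as photosystem II reaction center protein G. The products are given as noted and were not checked, among them that of ATCG00430, named in a note on AT5G11770. All rows other than these 6 are given by identifier.

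Part of the plastid genome lies in an inverted repeat, so that some genes are present as identical copies that short reads cannot tell apart. In RefSeq the gene rpl2, for ribosomal protein L2, has copies at Pltd:84337-85843 on the minus strand and Pltd:152806-154312 on the plus strand, each 1507 bases long, with 0 differences between them over the whole length. Copies of other genes were not compared in sequence. The first 60 bases of both rpl2 copies, in which no letter is set apart, are shown because such identity limits what at least 32 of the 133 rows can say.
rpl2, minus strand copy: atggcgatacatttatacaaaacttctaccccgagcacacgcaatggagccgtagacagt
rpl2, plus strand copy: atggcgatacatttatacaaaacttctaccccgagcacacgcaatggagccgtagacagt

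The deposited values show the same thing. A total of 16 pairs of rows, 32 identifiers, held exactly equal values in at least 9 library columns and in at least 20% of the columns where either exceeded 0.5 RPKM, a rule set after the values were seen. Rows too low for this rule stayed unpaired, such as ATCG00860 and ATCG01280, which were equal in all 16 root libraries. ATCG00960 and ATCG01170 were equal in all 104 columns. In other pairs one identifier held the value in some libraries and its partner was listed near 0. ATCG01310, the L2 row, stood at 0.02 RPKM in both opt3-2 control rosette libraries, while it and ATCG00830, its partner in equal values, summed to 27.0 RPKM in replicate 2 of that group. ATCG01210 was listed at 0.01 RPKM in replicate 1 of IMA3 OE deficient roots, where ATCG00920 held 139 RPKM. These 16 pairs supplied 51.2% to 74.4% of the summed plastid RPKM in root libraries and 67.2% to 84.7% in rosette libraries, so a value of one of their rows is uncertain and the sums of pairs are given below wherever a result turns on them.

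In every library the construct rows matched the line. The IMA1 construct stood at 199 to 329 RPKM in IMA1 OE and at no more than 0.25 RPKM in any other line, and the IMA3 construct at 26.6 to 40.9 RPKM in IMA3 OE and at no more than 0.05 RPKM elsewhere. OPT3 (AT4G16370) had 3.98 and 4.17 RPKM as lowest and highest value in opt3-2 deficient roots, against 40.6 and 98.2 RPKM in EYFP deficient roots. The IMA3 gene row itself (AT2G30766) did not set IMA3 OE apart everywhere: its lowest and highest values were 26.3 and 31.6 RPKM in IMA3 OE deficient roots, against 20.9 and 45.7 RPKM in EYFP deficient roots, and 109 and 126 RPKM in IMA3 OE deficient rosettes, against 287 and 430 RPKM in EYFP deficient rosettes. On control medium they were 25.8 and 28.2 RPKM in IMA3 OE roots, against 0.331 and 0.813 RPKM in EYFP roots, and 12.7 and 14.8 RPKM in IMA3 OE rosettes, against 9.85 and 48.3 RPKM in EYFP rosettes. The 10 leaf genes used as tissue markers (among them RBCS1A, LHCB1.2 and RCA) summed to 31549 to 51393 RPKM in rosettes and to 109 to 413 RPKM in roots. Read depth is not known, because the files hold RPKM without counts.

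Plastid RNA was a minor part of every library. In rosettes the 133 rows summed to between 1700 and 7421 RPKM in 15 of the 16 libraries, which was 0.238% to 1.02% of all RPKM. The remaining library, replicate 2 of opt3-2 on control medium, held 24319 RPKM, or 3.27%. In roots the sum lay between 73.7 and 277 RPKM in 14 of 16 libraries, or 0.0107% to 0.0403%. Both IMA3 OE deficient root libraries were above that range, with 510 RPKM in replicate 1 and 2085 RPKM in replicate 2. These libraries and the opt3-2 library were singled out for their plastid values before the counts below. Counts of rows that are highest in them therefore describe the excess and do not test it. Of the 133 rows, 113 reached a mean of 0.5 RPKM over the 16 rosette libraries and 77 over the 16 root libraries; all 77 were also among the 113, and 20 reached it in neither tissue. A row that passed only through a library with excess had to be high there, so the counts below describe the rows that passed and not the plastid genome as a whole. Over the libraries without excess, 14 in roots and 15 in rosettes, 53 and 110 rows reached that mean.

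**Figure D1:**
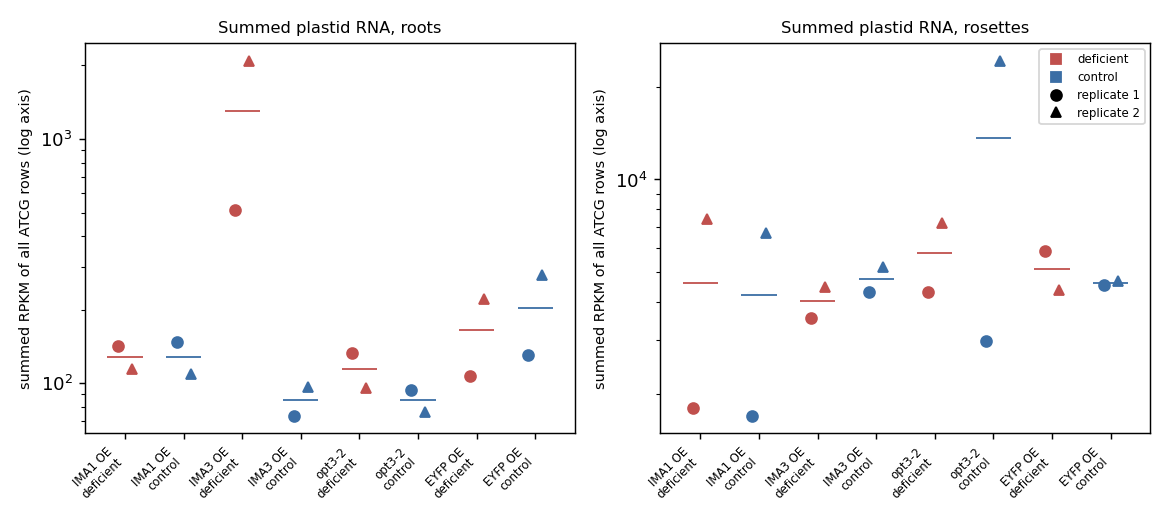
Summed RPKM of the 133 plastid rows in each library (points; log axis) with the mean of the 2 libraries of a group (lines), by line and medium, in roots (left) and rosettes (right). In roots both IMA3 OE deficient libraries lie above the 14 others, at 510 and 2085 RPKM; in rosettes 1 of the 2 opt3-2 control libraries lies above the 15 others, at 24319 RPKM, and its partner holds 2977 RPKM.

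The same few rows led in both tissues. Averaged over 16 libraries, ATCG00920, ATCG00950, ATCG01180 and ATCG01210, which form 2 of the copy pairs, had the 4 highest means in rosettes with 977, 908, 868 and 699 RPKM, and they were also the 4 highest in roots with 51.3, 24.6, 43.6 and 19.5 RPKM. These means rest in part on the libraries with excess: over the 14 other root libraries the medians were 9.65, 8.68, 9.73 and 8.02 RPKM, and over the 15 other rosette libraries 778, 713, 619 and 559 RPKM, still the 4 highest in each tissue. These 4 rows made up 46.7% to 64.2% of the plastid sum in rosette libraries and 26.0% to 61.3% in root libraries. The share was highest, in roots, in the 2 libraries with excess, at 54.4% and 61.3%, against 26.0% to 46.1% in the 14 others. Next in rosettes came ATCG00930 with 249, ATCG00020 with 209, ATCG00940 with 171, ATCG01190 with 154, and ATCG00960 and ATCG01170 with 135 RPKM each. By mean, the next in roots were ATCG00960 and ATCG01170 with 8.81 RPKM each, ATCG00020 with 5.73, ATCG00940 and ATCG01190 with 5.18, and ATCG00930 and ATCG01200 with 4.76 RPKM. By median over the 14 other libraries they were ATCG00960 and ATCG01170 with 4.51, ATCG00940 and ATCG01190 with 3.57, and ATCG00930 and ATCG01200 with 3.33 RPKM. ATCG00020 stood at 1.66 RPKM there, below ATCG00760 with 2.27 and ATCG01020 with 1.77 RPKM, so its place by mean rests on the libraries with excess.

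Levels in rosettes and roots were set apart by very different factors from row to row. The tables of the tissues were equalised separately, so the ratios are a description without a test. Over the libraries without excess, the median of ATCG00490 was 83.2 RPKM in rosettes and 0.738 RPKM in roots, a ratio of 113, the highest of the 44 rows with a root median of at least 0.5 RPKM. ATCG00020 had 149 RPKM in rosettes and 1.66 RPKM in roots, a ratio of 89.9. At the other end ATCG00510 differed 3.22-fold and ATCG00760 3.53-fold, and the ClpP row ATCG00670 stood at 7.36 RPKM in rosettes and 1.22 RPKM in roots, a ratio of 6.05. The S11 row ATCG00750 had 3.70 RPKM in rosettes and 0.510 RPKM in roots. All 44 rows were higher in rosettes, with a median ratio of 22.9 and quartiles of 7.37 and 40.3. The highest and lowest ratios rest on root medians near the cut and are uncertain. Over the root libraries without excess ATCG00510 had a median of 0.625 RPKM, with 0.115 RPKM as lowest and 2.23 RPKM as highest value. Rows below the cut have no ratio, so the spread describes these 44 rows only.

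In IMA3 OE roots on deficient medium plastid RNA was higher than in IMA3 OE roots on control medium and than in EYFP roots on deficient medium, in both libraries but to very unequal degree. The summed pair ATCG00920 and ATCG01210 held 139 RPKM in replicate 1 and 656 RPKM in replicate 2, against 9.57 to 60.4 RPKM in the 14 other root libraries. Its partner at the top of the list, the pair ATCG00950 and ATCG01180, held 139 and 622 RPKM, against 10.3 to 60.1 RPKM. Replicate 2 stood 34.0 and 32.0 times above the median of the 14 others for these pairs, and replicate 1 stood 7.18 and 7.12 times above it. The ClpP row ATCG00670 had 3.86 and 16.3 RPKM in IMA3 OE deficient roots, against 0.875 and 1.24 RPKM in IMA3 OE control roots and 0.920 and 2.19 RPKM in EYFP deficient roots. The groups did not overlap for this row. ATCG00660, the L20 row, had 1.34 and 5.93 RPKM in IMA3 OE deficient roots, against 0.20 and 0.465 RPKM in IMA3 OE control roots. ATCG00750, the S11 row, had 1.87 and 3.49 RPKM in IMA3 OE deficient roots, against 0.175 and 0.665 RPKM in IMA3 OE control roots. Neither row's media overlapped.

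Of the rows that the tests below turn on, ATCG00020 had 11.5 and 54.3 RPKM in IMA3 OE deficient roots, against 0.705 and 1.14 RPKM in IMA3 OE control roots and 1.68 and 3.72 RPKM in EYFP deficient roots. ATCG00400 had 5.89 and 20.03 RPKM in IMA3 OE deficient roots, against 0.16 RPKM in both IMA3 OE control libraries and 0.814 and 1.61 RPKM in EYFP deficient roots. The 0.16 RPKM is the lowest root value of ATCG00400, shared with both opt3-2 control libraries. It is a floor and not a measured level. Equal floor values add no spread between replicates to the SE of ATCG00400. In both rows the IMA3 OE deficient libraries lay above all others named, with replicate 2 the higher. ATCG00490 had 4.72 and 22.5 RPKM in IMA3 OE deficient roots, against 0.475 and 0.69 RPKM in IMA3 OE control roots and 0.984 and 1.86 RPKM in EYFP deficient roots. ATCG00580 had 5.07 and 14.6 RPKM, against 0.83 and 0.835 RPKM in IMA3 OE control roots and 0.506 and 0.294 RPKM in EYFP deficient roots. The groups did not overlap in these rows either.

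Within IMA3 OE roots, 18 of the 77 plastid rows tested rose on deficient medium and none fell (limma's moderated test on log2(RPKM + 0.5), adjusted p under 0.05 by Benjamini-Hochberg over all 20577 genes tested), where 0.695% of all genes tested were called. At an unadjusted p under 0.05 the count was 69, all higher, against 5.87% of all genes. Some of the 77 passed the filter only through the IMA3 OE deficient libraries, which fixed part of this count and of the median. The median log2 fold change was 2.15 over the members, -0.01 over all genes and 1.71 over the 47 mitochondrial genes tested, of which 8 were called. Among the 18, the log2 fold change was 5.22 ± 0.63 (SE) for ATCG00920, with an adjusted p of 0.00274, 4.26 ± 0.60 for ATCG00020, with 0.00815, 4.10 ± 0.46 for ATCG00400, with 0.00148, and 4.09 ± 0.74 for ATCG00960 and for its copy ATCG01170, with 0.0351. Smaller changes that passed included ATCG00490 at 3.42, ATCG00580 at 2.82, ATCG00720 at 2.71, ATCG00280 at 2.55 and ATCG00350 at 2.37. The S11 row ATCG00750 rose by 1.82 ± 0.34, with an adjusted p of 0.0399. With the same-numbered libraries of a line paired across media, an alternative chosen after seeing the data, the count was 29 of 77. Other settings lowered it: 2 members were called without the filter on low values, 6 at a mean of at least 2 RPKM, and 11 at a pseudocount of 0.1 or without a trend of the spread with level. With the filter taken over the 14 libraries without excess, 10 of 53 were called. ATCG00920 shares its reads with ATCG01210, and the summed pair rose by 4.48, with an adjusted p of 0.0120.

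Against EYFP roots on deficient medium, IMA3 OE roots had 2 of 77 members higher and none lower, where 0.131% of all genes tested were called. These were ATCG00920, with a log2 fold change of 4.41 ± 0.63 and an adjusted p of 0.0293, and ATCG00580, with 3.33 ± 0.45 and 0.0214. With each copy pair summed, ATCG00920 with ATCG01210 was no longer called, at a log2 fold change of 3.36 and an adjusted p of 0.105, and the count was 1. ATCG00580, which is in no pair, reached at most 1.72 RPKM in the 14 other root libraries. At an unadjusted p under 0.05 the count was 63, all higher, against 7.18% of all genes, and the median log2 fold change was 1.71 over the members, -0.01 over all genes and 1.28 over the mitochondrial genes tested. The filter on low values fixed part of this count and of the members' median here too. Both IMA3 OE libraries were higher than both EYFP libraries for 62 of the 77 members, against 8.84% of all genes tested; with the filter taken over the 14 libraries without excess this was so for 41 of 53, against 8.7%, and the same number, 2, was called. The comparison used the spread of all 8 root groups; when the spread was taken from only the 2 groups compared, no member was called in either comparison of IMA3 OE deficient roots, with limma's moderation kept.

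Both comparisons turned on the 2 libraries to unequal degree. All 77 members were higher in replicate 2 than in replicate 1 of IMA3 OE deficient roots, by a median of 1.68 on the log2 scale, where the median absolute difference of the replicates over all genes was 0.13. Without replicate 2, the median log2 fold change of the members was 1.36 on deficient against control medium, with 3 members called, and 1.01 against EYFP, with 0 called. Without replicate 1, these were 2.97 with 44 called and 2.59 with 23 called. Leaving out replicate 1 or 2 of IMA3 OE control roots also cut the first count, to 2 members each, and leaving out replicate 1 or 2 of EYFP deficient roots cut the second to 0 each. Set against the whole tissue, 49 of the 77 members were higher in both IMA3 OE deficient libraries than in all 14 other root libraries, against 0.705% of all genes tested, and the other 28 were higher in only 1 of them, against 3.14%. Some of the 77 reached the filter only through these libraries, and the libraries were singled out for their plastid values. Both choices fixed part of this. Among the 53 rows that passed on the 14 others alone, 32 were higher in both, against 0.579%, and 21 in only 1, against 3.06%.

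**Figure D2:**
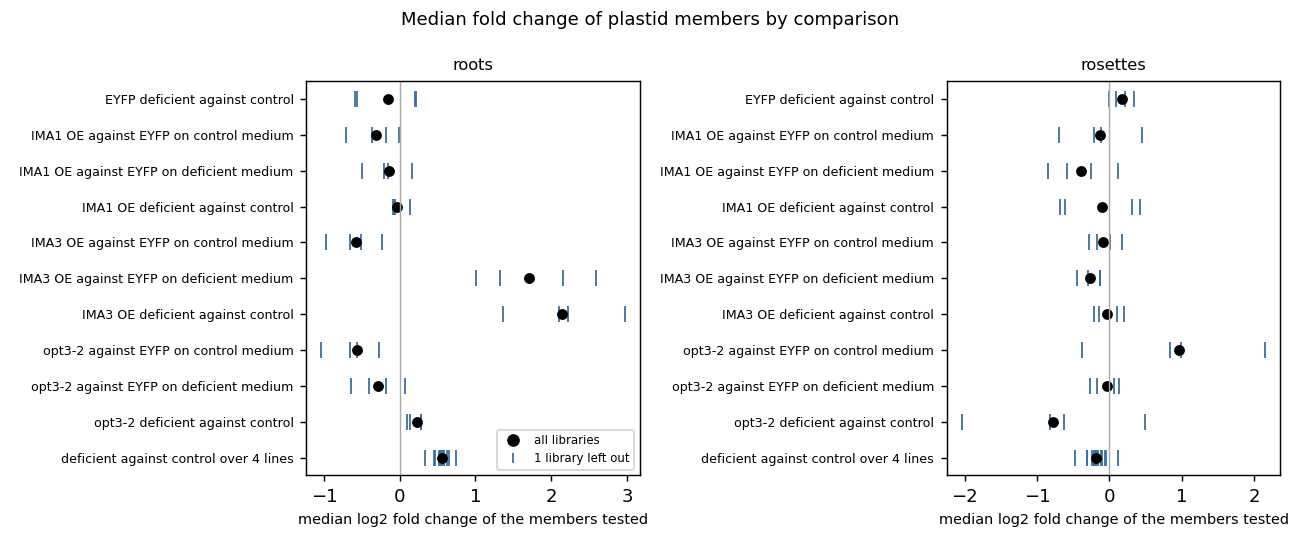
Median log2 fold change of the plastid rows tested (77 in roots, 113 in rosettes) in each of 22 comparisons, with all libraries (points) and with each library of the comparison left out in turn (ticks). In IMA3 OE deficient roots each median stays above 1; in opt3-2 control rosettes the median against EYFP is between -0.38 and 2.16, depending on the library left out.

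Over all 4 lines, 2 of 77 members rose on deficient medium in roots and none fell, where 5.29% of all genes tested were called. ATCG00400 rose by 1.41 ± 0.23 on the log2 scale, with an adjusted p of 0.00334, and ATCG00920 by 1.38 ± 0.32, with 0.0282; the summed pair of ATCG00920 and ATCG01210 was at 1.27, with 0.0526. The ATCG00400 values of IMA3 OE and opt3-2 control roots were the floor of that row, 0.16 RPKM. With the same-numbered libraries of a line paired, 15 were called. Over EYFP, IMA1 OE and opt3-2 alone the median of the members was 0.00, against 0.55 over 4 lines, and 0 members were called in the same limma fit; ATCG00400 was at 0.51, with an adjusted p of 0.209. Without replicate 1 of IMA3 OE deficient roots the 4-line count was 24, and without replicate 2 it was 1. It was 4 without replicate 1 of EYFP deficient or of opt3-2 control roots, and 1 without replicate 2 of EYFP deficient, IMA1 OE control or opt3-2 control roots, replicate 1 of opt3-2 deficient roots, or either IMA3 OE control library.

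In the other lines and media the roots gave no call. EYFP deficient roots held 107 and 222 RPKM in all, against 130 and 277 RPKM in EYFP control roots, and 0 of 77 members were called, where 2.58% of all genes tested were. In IMA1 OE the sums were 142 and 115 RPKM on deficient against 147 and 109 RPKM on control medium, with 0 of 77 called, where 1.12% of all genes were. In opt3-2 they were 133 and 95.7 RPKM on deficient against 94.3 and 76.5 RPKM on control medium, with 0 of 77 called, where 0.86% of all genes were. The ranges of the media overlapped in EYFP and IMA1 OE, while in opt3-2 the lower deficient library lay just above the higher control library. At an unadjusted p under 0.05, limma gave 0, 0 and 1 members in EYFP, IMA1 OE and opt3-2, against 12.8%, 6.88% and 8.79% of all genes. The authors' deposited p-values, adjusted in the same way, gave 0 members in EYFP, against 0.778% of all genes, the only one of these 3 comparisons that a deposited table holds.

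On control medium, root plastid RNA in IMA3 OE and opt3-2 summed to less than in either EYFP library, without a member that passed the test. The sum was 147 and 109 RPKM in IMA1 OE, 73.7 and 97.0 RPKM in IMA3 OE and 94.3 and 76.5 RPKM in opt3-2, against 130 and 277 RPKM in EYFP. In IMA3 OE both libraries were lower than both EYFP libraries for 37 of 77 members, against 17.7% of all genes tested, and in opt3-2 for 39, against 22.3%. In IMA1 OE, whose sums overlapped those of EYFP, this was so for 26, against 14.3%. These counts, and the shares of all genes, can include rows at their floor, because levels averaged over tables set that floor slightly differently by group. ATCG00410 stood at 0.18 RPKM in both IMA3 OE, 0.17 RPKM in both IMA1 OE and 0.199 RPKM in both EYFP libraries. Its log2 fold change within a table was 0 in both lines. ATCG00080 stood at 0.125 RPKM in both opt3-2 libraries, against 0.131 and 0.593 RPKM in EYFP. None of the 77 members was called by limma in IMA1 OE, IMA3 OE or opt3-2, where 0.369%, 0.204% and 0.972% of all genes tested were called. The counts at an unadjusted p under 0.05 were 2, 7 and 8 members, against 5.37%, 7.16% and 11% of all genes, and those by the authors' deposited p-values 0, 1 and 1, against 0.253%, 0.214% and 0.389%. Other settings of limma called 1 member in opt3-2, at a pseudocount of 0.1 or with the replicate block; a spread estimated from 2 groups alone called 2 members in opt3-2 and 1 in IMA3 OE. The median log2 fold changes of the members were -0.31, -0.57 and -0.56. Some other RNAs were lower beside them. The medians were -0.48, -1.15 and -0.86 over the 4 nuclear ribosomal RNA loci and -0.60, -0.17 and -0.85 over the 10 leaf genes. They were 0.06, -0.41 and -0.19 over the 47 mitochondrial genes tested and -0.11, 0.24 and 0.28 over 5 root marker genes. None of these was called, and their part in the plastid values was not tested. ATCG00400 came closest, at 0.16 RPKM in both opt3-2 libraries against 2.29 and 2.15 RPKM in the EYFP libraries, with an adjusted p of 0.0726. The 0.16 RPKM is the floor of that row. On deficient medium, IMA1 OE and opt3-2 roots also had 0 of 77 members called against EYFP, with 0.131% and 0.0875% of all genes called, 0 and 0 members at an unadjusted p under 0.05, against 4.66% and 4.99%, and 0 and 0 by the authors' deposited p-values, against 0.18% and 0.238%.

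EYFP roots themselves were uneven. Replicate 2 held 2.08 times the plastid sum of replicate 1 on deficient medium and 2.12 times on control medium, and 70 and 66 of the 77 members were higher in replicate 2. The median difference, replicate 2 minus 1 on the log2 scale, was 0.77 and 0.73 over the members and -0.005 and 0.0006 over all genes. The same number marked the higher library on both media, and comparisons of root lines on either medium share these EYFP libraries.

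In rosettes, the excess on control medium in opt3-2 was carried by 1 of 2 libraries. Replicate 1 held 2977 RPKM in all, the lowest but 2 of the 16 rosette libraries, and replicate 2 held 24319 RPKM, 8.17 times as much. EYFP control rosettes held 4519 and 4660 RPKM. Of 113 members, 104 were higher in replicate 2 than in all other rosette libraries while replicate 1 was not, against 12.4% of all genes tested, and 0 were higher in both libraries of the group than in all others, against 0.871%. Among the 110 rows that passed the filter on the 15 others alone these counts were 101, against 12.3%, and 0, against 0.861%. Replicate 2 had been singled out for its plastid values, so the counts describe its excess and do not test it.

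ATCG00020 shows the pattern, with 93.4 and 1195 RPKM in opt3-2 control rosettes, against 174 and 117 RPKM in EYFP control rosettes. ATCG00490 had 83.2 and 554 RPKM, against 83.6 and 94.8 RPKM. The annotated rows, except the L2 row ATCG01310, also had their higher value in replicate 2. ATCG00670, the ClpP row, had 6.34 and 30.6 RPKM in opt3-2, against 8.92 and 8.77 RPKM in EYFP. ATCG00660, for L20, had 2.13 and 11.8 RPKM, against 1.38 and 2.12 RPKM. ATCG00430, whose noted product was not checked, had 2.72 and 18.8 RPKM, against 2.51 and 3.83 RPKM. The low library of opt3-2 was inside the EYFP range for ATCG00430, close to it for ATCG00490 and ATCG00660, and below it for ATCG00020 and ATCG00670. It was also below for the S11 row ATCG00750, with 1.76 and 9.32 RPKM in opt3-2 against 3.31 and 4.33 RPKM in EYFP. The same held for ATCG00530, with 1.68 and 11.8 RPKM against 2.99 and 2.56 RPKM. The high library was above the EYFP range in each of these rows.

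As a group, opt3-2 control rosettes had 0 of 113 members called against EYFP by limma, where 0.174% of all 19521 genes tested were called. The count at an unadjusted p under 0.05 was 6, all higher, a share of members below the 8.07% of all genes. By the authors' deposited p-values 34 members were called, against 0.891% of all genes. The median log2 fold change of the members was 0.96. Without replicate 2 it was -0.38 with 0 called, and without replicate 1 it was 2.16 with 8 called. The comparison of opt3-2 on deficient with control medium carried the same library on its control side: the sums were 4300 and 7210 RPKM on deficient against 2977 and 24319 RPKM on control medium, the median log2 fold change was -0.78, and 0 of 113 were called, where 0.22% of all genes were, with 5 members at an unadjusted p under 0.05, against 5.7% of all genes. Without replicate 2 the median was 0.50 with 0 called, and without replicate 1 it was -2.04 with 4 called.

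**Figure D3:**
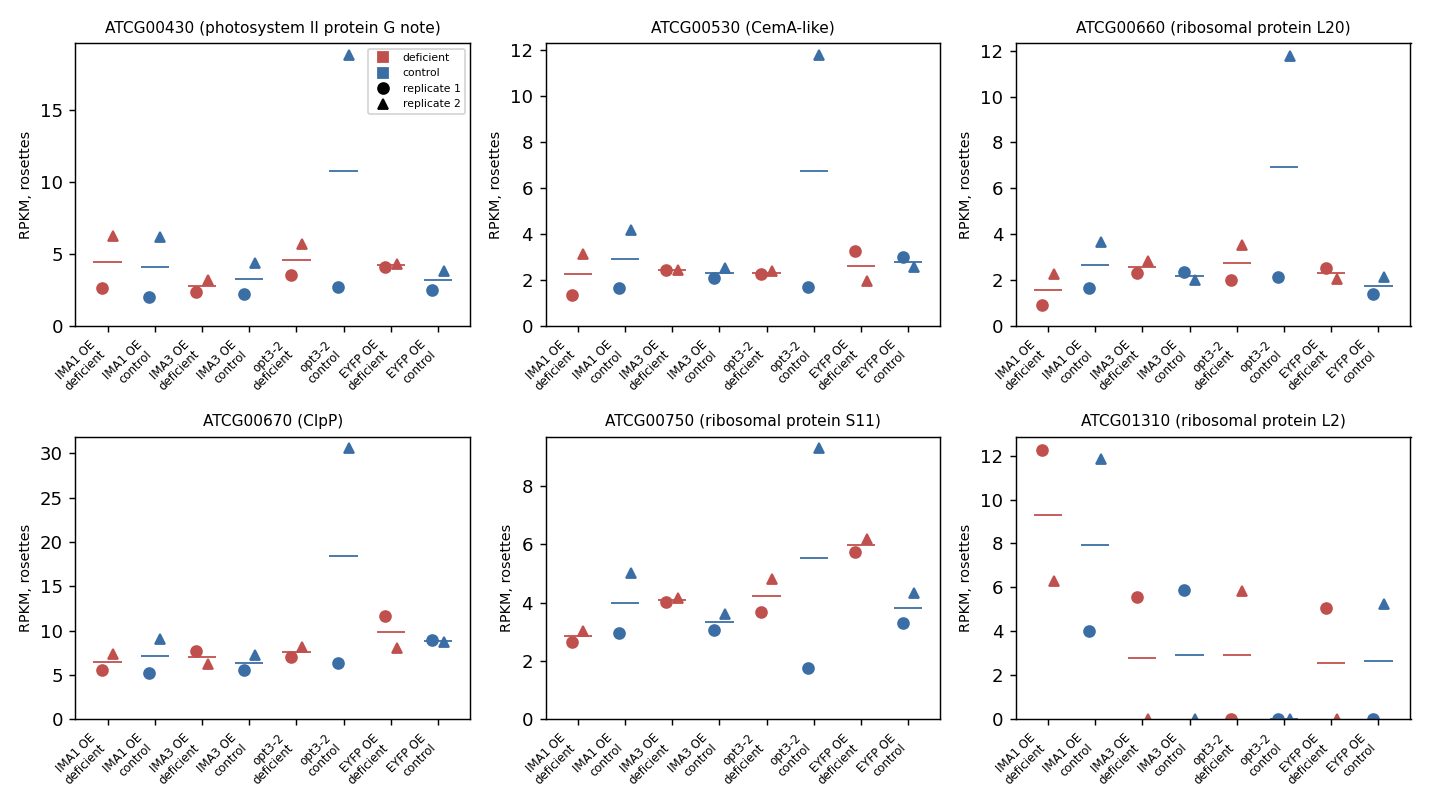
RPKM in the 16 rosette libraries of the 6 plastid rows paired with a product (points, with group means as lines; linear axes from 0), by line and medium. Replicate 2 of opt3-2 on control medium is the highest point in 5 panels, as in the ClpP row with 30.6 RPKM; in the L2 row both opt3-2 control libraries stand at 0.02 RPKM, since its values alternate with those of ATCG00830.

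The excess was not the same for all rows. In replicate 2 of opt3-2 control rosettes, 95 of the 104 members with a median of at least 1 RPKM in the other 15 libraries were above all of them, against 9.78% of all genes at that level. The ratio to the median of the others had a median of 5.24 and quartiles of 3.29 and 6.76. It was highest at 11.9 for ATCG00510, followed by 10.3 for ATCG01070, 10.0 for ATCG00290, 9.99 for ATCG00690 and 9.31 for ATCG00600. The 5 lowest ratios were 0.0039 for ATCG01310, whose copy held the value, 0.997 for ATCG00620, 1.32 for ATCG00190, and 1.83 for the copies ATCG00910 and ATCG01220. Low ratios also lay along 2 runs of neighbouring identifiers, picked out after their values were seen, and rows outside these runs were as low, among them ATCG01020 with 2.04 and ATCG01230 with 2.12. From ATCG00160 to ATCG00190 the ratios were 2.53, 2.23, 2.05 and 1.32, and from ATCG00740 to ATCG00820 they lay between 2.01 for ATCG00790 and 3.55 for ATCG00740. The S11 row ATCG00750 lies in the second run, with 2.52.

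In IMA3 OE deficient roots, 22 members had a median of at least 1 RPKM in the 14 other libraries. Replicate 2 was above all of the others for all 22, against 2.13% of all genes at that level, with a median ratio of 10.3 and quartiles of 5.67 and 15.8. Replicate 1 was above all of them for 13, against 1.55%, with a median ratio of 3.15. The 5 highest ratios in replicate 2 were 50.7 for ATCG00920, 42.6 for ATCG01180, 32.7 for ATCG00020, 23.9 for ATCG00950 and 20.7 for ATCG01210, and in replicate 1 14.4, 9.49, 6.93 and 5.33 for the first 4 of these and 3.77 for ATCG00330. ATCG00190 was lowest in replicate 2, at 1.69, and stood at 1.10 in replicate 1 and at 1.32 in the opt3-2 library. In replicate 1 ATCG01020 and ATCG00760, which are in no copy pair, lay below the median of the others, at 0.684 and 0.830. ATCG01210 was lower still there, at 0.0012, while its copy held the value.

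**Figure D4:**
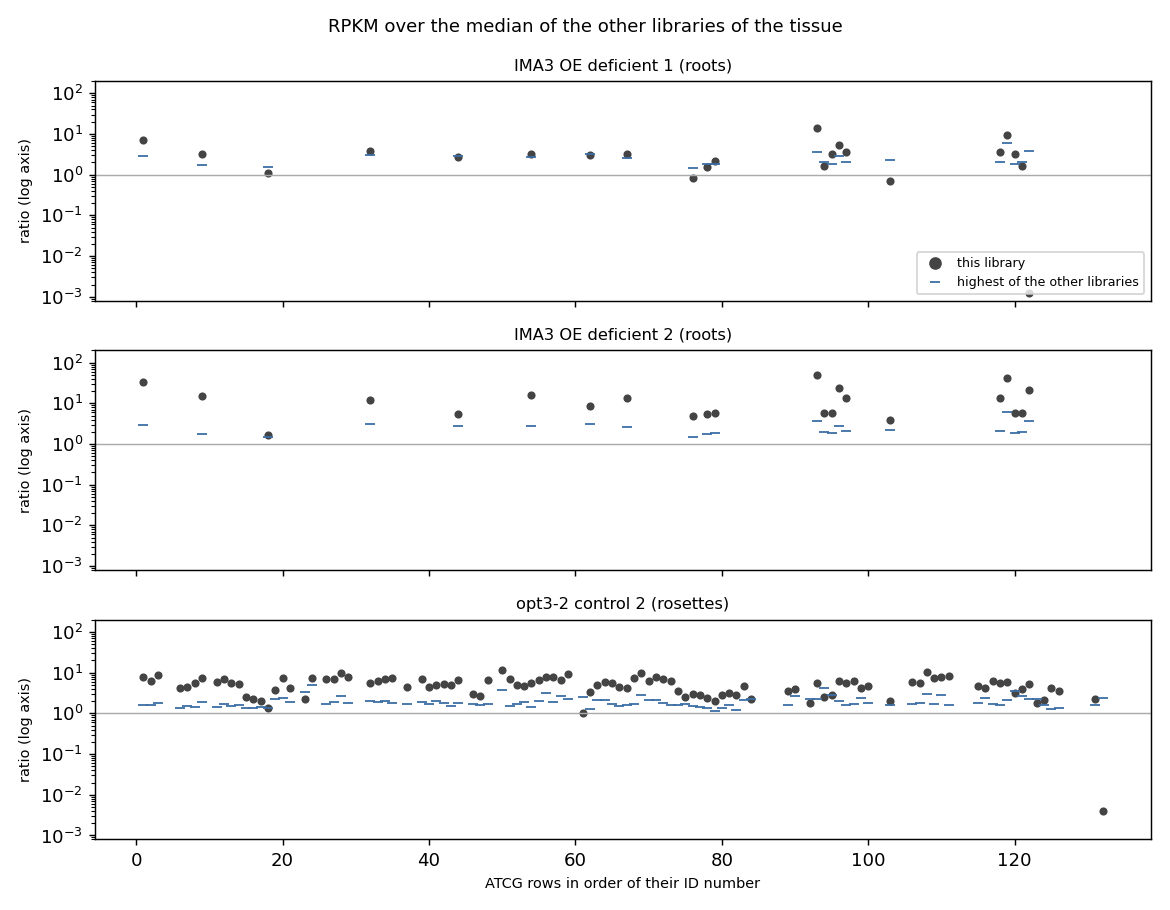
RPKM of each plastid row in 1 library over the median of the other libraries of its tissue (points; log axes), for rows whose median was at least 1 RPKM, in order of identifier, with the highest of the other libraries (dashes). The points reach 50.7 for ATCG00920 in IMA3 OE deficient roots replicate 2 and 11.9 for ATCG00510 in opt3-2 control rosettes replicate 2; the lowest points, 0.0012 for ATCG01210 and 0.0039 for ATCG01310, are rows whose copy held the value.

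Mitochondrial and nuclear ribosomal RNAs were high in the same libraries. The 146 mitochondrial rows (identifiers starting with ATMG) summed to 1264 and 3363 RPKM in IMA3 OE deficient roots, against 349 to 708 RPKM in the 14 other root libraries, and to 749 RPKM in replicate 2 of opt3-2 control rosettes, against 87.3 to 252 RPKM in the 15 others. The 4 nuclear loci annotated as ribosomal RNA (AT2G01010, AT2G01020, AT3G41768 and AT3G41979) summed to 30209 and 61713 RPKM, against 2201 to 10583 RPKM, and to 28811 RPKM, against 2376 to 11236 RPKM. Of these, AT2G01010 rose by 3.44 ± 0.40 on the log2 scale within IMA3 OE roots, with an adjusted p of 0.00178 by limma, and AT2G01020 was higher by 3.68 ± 0.60 in opt3-2 than in EYFP control rosettes, with 0.0486. The median over the 4 loci in that opt3-2 comparison was 1.26. Over all 22 comparisons these loci gave 5 calls higher and 1 lower. The lower call was AT3G41979 in IMA1 OE against EYFP rosettes on deficient medium, with a log2 fold change of -3.78 ± 0.63. There the median over the 4 loci was 0.20. Whether these loci share reads was not tested. The 10 leaf genes were not raised: they summed to 201 and 313 RPKM in IMA3 OE deficient roots, against 109 to 413 RPKM in the 14 others, and to 31549 RPKM in replicate 2 of opt3-2 control rosettes, the lowest of the 16, against 39759 to 51393 RPKM. Among them RCA, for Rubisco activase, gave the 1 call, lower by 0.50 ± 0.13 in roots on deficient medium over 4 lines (log2 fold change -0.50, adjusted p = 0.0494 by limma), where 5.29% of all genes tested were called. The 5 root markers gave 0 calls. The part of these RNAs, and of what raised them, in the plastid excess was not tested; RNA integrity numbers are given by tissue only, 9.8 to 10 for roots and 8.3 to 8.7 for rosettes.

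**Figure D5:**
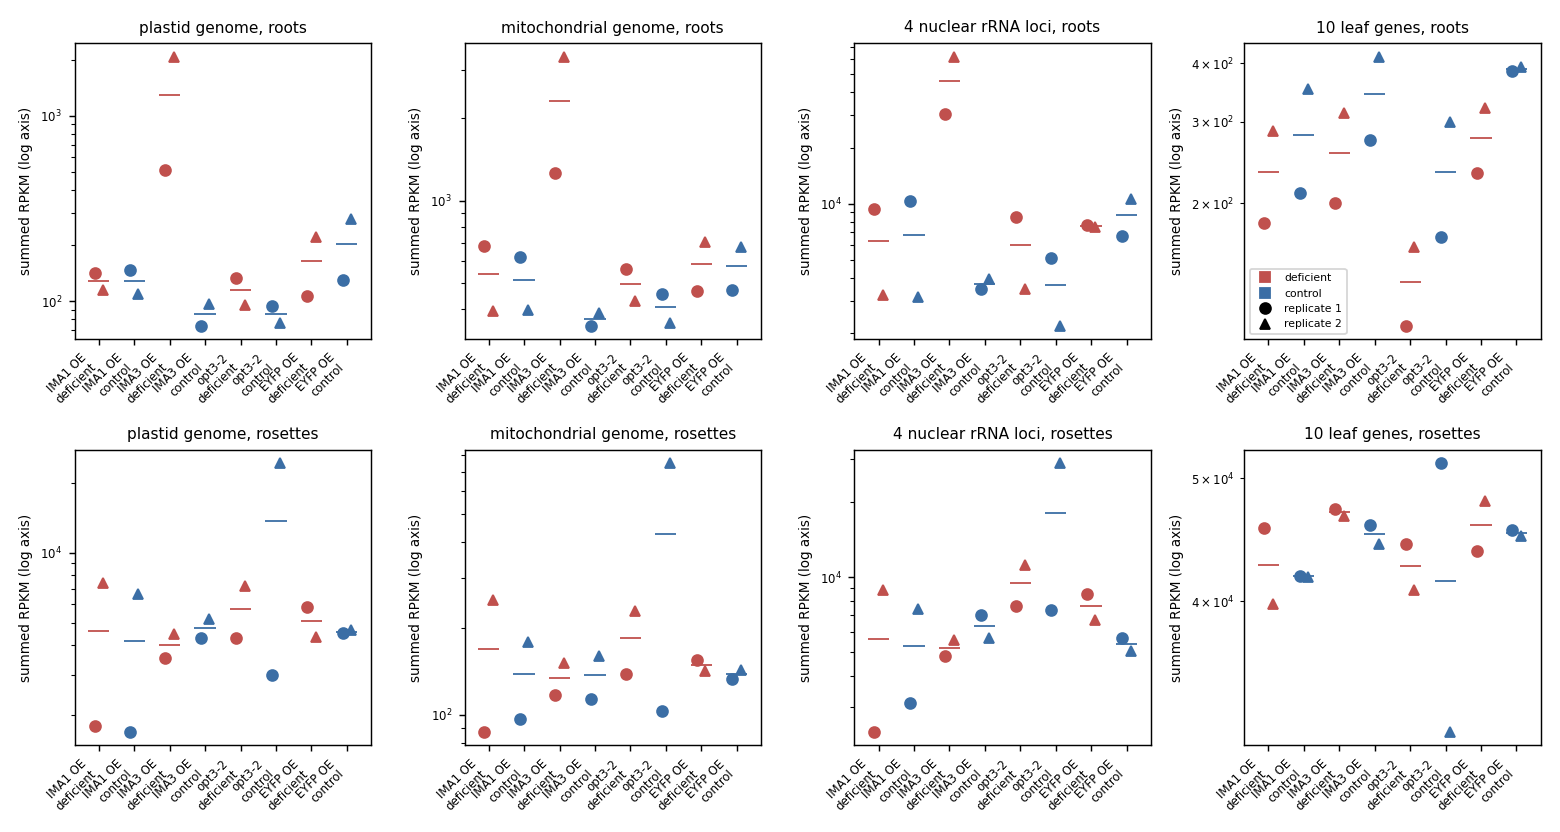
Summed RPKM (log axes) in each library of the 133 plastid rows, the 146 mitochondrial rows, 4 nuclear ribosomal RNA loci and 10 leaf genes, in roots (top) and rosettes (bottom); lines are group means. The first 3 sums are highest in the same libraries, IMA3 OE deficient in roots and replicate 2 of opt3-2 control in rosettes; the leaf genes are not.

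IMA1 OE rosettes differed between replicates in the same way on both media. The sums were 1796 and 7421 RPKM in replicates 1 and 2 on deficient medium and 1700 and 6680 RPKM on control medium, the lowest 2 and, on deficient medium, the highest of the 15 libraries without excess. Replicate 2 was higher for 103 of 113 members on deficient and for 106 on control medium. The median difference, replicate 2 minus 1 on the log2 scale, was 0.96 and 1.14 over the members and -0.004 and -0.006 over all genes. Neither medium nor line gave a call: limma called 0 of 113 members for deficient against control medium in IMA1 OE, where 0% of all genes were called, and 0 against EYFP on control and on deficient medium, where 0.0666% and 0.528% of all genes were. The counts at an unadjusted p under 0.05 were 0, 0 and 0, against 1.37%, 6.78% and 7.82% of all genes, and the authors' deposited p-values gave 5 and 8 members in the comparisons with EYFP, against 0.569% and 0.932%.

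In the remaining rosette comparisons no member passed the test. IMA3 OE rosettes held 3548 and 4459 RPKM on deficient medium and 4312 and 5188 RPKM on control medium, and EYFP rosettes 5826 and 4364 RPKM on deficient medium and 4519 and 4660 RPKM on control medium. On deficient medium both IMA3 OE libraries were lower than both EYFP libraries for 46 of 113 members, against 16.8% of all genes tested, with a median log2 fold change of -0.27, but limma called 0 of 113, where 0.0359% of all genes were called. For IMA3 OE against EYFP on control medium 0 of 113 were called, where 0% of all genes were, and for IMA3 OE on deficient against control medium 0, where 0.0359% were. EYFP itself gave 0 of 113 on deficient against control medium, where 0.338% of all genes were called, although both deficient libraries were higher than both control libraries for 33 members, against 11.5% of all genes tested. For opt3-2 against EYFP on deficient medium 0 were called, where 0.0461% were, and for deficient against control medium over 4 lines 0, where 0.523% were. In the order of these 6 comparisons, 2, 5, 2, 0, 3 and 1 members had an unadjusted p under 0.05, against 3.59%, 3.19%, 1.23%, 2.53%, 3.34% and 4.64% of all genes. The authors' deposited p-values gave 11 members for IMA3 OE on deficient and 4 on control medium, against 0.507% and 0.215% of all genes, 3 for EYFP, against 0.451%, and 6 for opt3-2 on deficient medium, against 0.394%.

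Among nuclear genes of plastid transcription and RNA processing 1 gene, SIG1, passed the test. Of the 6 sigma factors, 5 were tested in roots and 6 in rosettes, and over all 22 comparisons there was 1 call in each direction. SIG1 (AT1G64860), a sigma factor of the plastid-encoded polymerase, fell by 0.35 ± 0.07 on the log2 scale in roots on deficient medium over 4 lines, with an adjusted p of 0.0209 by limma. It was higher by 1.21 ± 0.20 in IMA1 OE than in EYFP rosettes on deficient medium, at 91.1 and 93.2 RPKM against 45.7 and 34.2 RPKM, with an adjusted p of 0.0271. Of all genes tested, 5.29% were called in the first of these comparisons and 0.528% in the second. In IMA3 OE roots SIG1 stood at 8.89 and 8.81 RPKM on deficient against 10.1 and 11.7 RPKM on control medium. None of the 3 phage-type polymerases, the 12 polymerase-associated proteins or the 5 RNA processing proteins was called in any of the 22 comparisons, and the medians of these lists stayed between -0.25 and 0.13 on the log2 scale.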

How the data were processed

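RNA of roots and rosettes was sequenced from poly(A) libraries (stranded kit, per the labels' protocols); bcl2fastq 1.8.4, Trimmomatic 0.35, Bowtie2 2.0.6, edgeR 3.12.1, limma 3.26.9 and the build TAIR10 are named in the submitters' processing notes, with no role given. The deposited tables, 13 per tissue, each hold 4 libraries as RPKM-like values that the authors equalised within a table, with a Z-test's p-value and a log2 fold change by the authors; the unit was inferred from floors that fall with gene length. A library's value differed between tables by a median ratio of 1.02 (at most 1.18, members over 2 RPKM), and levels here are means over tables. Depth is unknown, so no interval for counting error is given. The 4 rows that are constructs were left out of the tests.

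Fold changes of log2(RPKM + 0.5) were taken within a table (responses within IMA1 OE, IMA3 OE and opt3-2 through EYFP control), for genes averaging 0.5 RPKM or more across a tissue's 16 libraries. The spread came from all 8 groups of the tissue (8 residual degrees of freedom), moderated with limma 3.58.1 in R, 2-sided, with Benjamini-Hochberg adjustment per comparison. The labels do not say that the 2 libraries of a group came from separate cultures, so p-values measure the spread between libraries. The main tests paired no libraries. In an alternative fit same-numbered libraries of a line were paired across media. Their deviations correlated in all 8 cases (0.16 to 0.57 over all genes tested). Same-numbered libraries of different lines also correlated, at medians of 0.23 in roots and 0.37 in rosettes. The correlations therefore do not show that a number marks a pair within a line. The members, the lists and the libraries set apart for excess were chosen with earlier results of these data known. Named rows are the 10 highest per tissue, up to 10 called per comparison, the annotated ones, the 5 largest ratios per library with excess, and up to 4 called genes per comparison from the lists. Steps were tested on simulated data. Alternatives were the pseudocount, the filter, the source and trend of the spread, a scale from nuclear genes, a replicate block, EYFP deficient as the link, summed copies, a filter over the libraries without excess, the deposited p-values and each library left out.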

Additional observations from a re-analysis of the deposited data

Results flagged for a closer look

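The response of IMA3 OE roots to deficient medium differed from that of EYFP roots for 2 of 77 plastid members, where 0.131% of all genes tested were called. The difference of the log2 responses was 4.79 ± 0.65 for ATCG00400 (adjusted p = 0.0217, limma's moderated test of the interaction) and 6.38 ± 0.90 for ATCG00920 (adjusted p = 0.0269), and 58 members had an unadjusted p under 0.05, against 5.38% of all genes. ATCG00400 stood at 5.89 and 20.03 RPKM in deficient and 0.16 and 0.16 RPKM in control IMA3 OE roots, against 0.814 and 1.61 RPKM in deficient and 2.29 and 2.15 RPKM in control EYFP roots. The 0.16 RPKM is the floor of that row and not a measured level. ATCG00920 stood at 139 and 489.9 RPKM in deficient and 5.89 and 7.83 RPKM in control IMA3 OE roots, against 11.1 and 13.9 RPKM in deficient and 25.9 and 30.2 RPKM in control EYFP roots. Summed with ATCG01210, with which it shares reads, its difference was 4.88 ± 0.94 (adjusted p = 0.125) and the number of members called was 1. With 1 library left out, the number of members called ranged from 0 to 18; it was 0 without any one EYFP root library or either IMA3 OE control library, and 18 without replicate 1 of IMA3 OE deficient roots. With same-numbered libraries of a line paired it was 8. Some of the 77 passed the filter only through the IMA3 OE deficient libraries, which fixed part of the count of 58. The cause of the difference was not tested.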

How the results depend on the processing

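The number of plastid members called moved by over 1.5 times in the comparisons named here, and the cause was not tested. For IMA3 OE deficient against control roots (18 members, median log2 fold change 2.15) the count was 11 at a pseudocount of 0.1 (median 2.97), 2 without a filter (median 1.60), 6 at a mean of at least 2 RPKM, 0 with a spread from these groups only, 11 without a trend, 10 with the filter over the libraries without excess and 29 with a replicate block within each line. For IMA3 OE against EYFP on deficient medium (2 members) it was 0 without a filter and with a spread from these groups only, 1 at a mean of at least 2 RPKM and with copies summed, 4 on the nuclear scale, 6 with the replicate block over the tissue and 7 by the authors' deposited p-values. For roots over 4 lines (2 members) it was 1 without a filter, 5 with the replicate block over the tissue, 15 with the block within each line, and 0 over EYFP, IMA1 OE and opt3-2 (median 0.00 against 0.55). For opt3-2 against EYFP on control medium in roots it was 1 at a pseudocount of 0.1, with the replicate block and by the authors' p-values, and 2 with a spread from these groups only, against 0. That choice of spread also gave 1 in EYFP roots on deficient against control medium and 1 in IMA3 OE against EYFP control roots, against 0; the authors' p-values gave 1 in IMA3 OE against EYFP control roots and, in rosettes, 3 for EYFP, 5 and 8 for IMA1 OE, 4 and 11 for IMA3 OE and 34 and 6 for opt3-2 on control and deficient medium. The difference of the IMA3 OE and EYFP responses in roots had 2 members, 8 with the block within each line and 1 with copies summed. Summing copies ended the calls of ATCG00920 against EYFP on deficient medium and over 4 lines. Leaving out 1 library gave 2 to 44 members and medians of 1.36 to 2.97 for IMA3 OE deficient against control roots, 0 to 23 and 1.01 to 2.59 for IMA3 OE against EYFP on deficient medium, 1 to 24 over 4 lines, 0 to 18 for the difference of responses, 0 to 1 for EYFP deficient against control roots, 0 to 1 for IMA1 OE against EYFP control rosettes, 0 to 8 and -0.38 to 2.16 for opt3-2 against EYFP control rosettes, and 0 to 4 and -2.04 to 0.50 for opt3-2 deficient against control rosettes. Across lines, same-numbered libraries had deviations that correlated at 0.02 to 0.38 in roots and -0.01 to 0.56 in rosettes. Within a line, across media, they correlated at 0.16 to 0.48 in roots and 0.33 to 0.57 in rosettes. These ranges overlap, so either block may join samples that share only a number. In the other comparisons the replicate block left the number of members called within 1.5 times. No named fold change turned its sign. Pairing rows by equal values, the mean over 3 lines, the filter over the libraries without excess, the block within each line and the refits of the difference of responses were chosen after seeing the data. Depth is unknown, so counting error could not be set beside the spread of 2 libraries a group.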
